A study of Homo sapiens with 6 samples.

Results

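Glycolysis is the pathway that splits glucose into pyruvate, and 35 genes of glycolysis and of glucose or lactate transport are described here, out of 37803 gene symbols found once in both deposited tables. The genes were chosen by name and function, with no measured value in the rule, and all 35 were found. The choice was made with earlier results of these data known. They comprise glucose transporters (SLC2A1, SLC2A3 and SLC2A4), the enzymes of each glycolytic step with their isozymes, the enzymes that set or oppose the phosphofructokinase step (PFKFB1 to PFKFB4, TIGAR and FBP1), lactate dehydrogenase (LDHA and LDHB), lactate transporters (SLC16A1 and SLC16A3), and pyruvate dehydrogenase with its kinases (PDHA1, PDHB and PDK1 to PDK4).

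The values come from RNA-seq of H1, an established line of human embryonic stem cells, sampled on day 2 of differentiation towards blood, when the cells pass from pluripotency to mesoderm. Unedited cells (WT, n = 2) were set against cells in which SNAI1, a transcription factor of the epithelial-mesenchymal transition, had been deleted. The titles of the deleted samples carry a leading number that gives 2 groups, SNAI1_KO_1 and SNAI1_KO_2 (n = 2 each). As the study describes them, the lines were edited with CRISPR/Cas9 and carry frameshift mutations, and whether the leading number stands for a line is not stated. All groups received activin A and BMP4, at 40 ng/ml and 50 ng/ml in the labels and with these doses exchanged in the methods of the study. The labels do not say whether the samples of a group were separate cultures, and a general statement of the study on independent experiments does not name these libraries, so the p-values below measure only the spread between these libraries, which may be technical.

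Expression is given as FPKM, a fragment count per length of transcript and per number of fragments mapped in the library. Each of the 2 deposited tables holds 1 library of every group, and the tables were normalized separately. Levels are therefore compared within a table, and each series of values below runs WT, SNAI1_KO_1, SNAI1_KO_2, first for the first table and then for the second. A difference is on the log2(FPKM + 1) scale, as the mean of both knockout groups minus WT with its SE, from limma with the table as a block. Adjusted p is by the Benjamini-Hochberg method over the 13909 genes whose FPKM averaged 1 or more, and "rose" and "fell" are used for an adjusted p below 0.05. FPKM per library summed to between 603399 and 633851, and absolute depth is unknown. SNAI1 mRNA itself was not lower in the libraries labelled SNAI1_KO, with an FPKM of 37.1, 51.6 and 68.6, then 36.4, 47.8 and 55.0. Its difference was 0.58 ± 0.074 (adjusted p = 0.00461). It did not pass without the block for the table (adjusted p = 0.0761), nor when WT of the first table was left out. The level of an mRNA with a frameshift does not show whether its protein is made.

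Glucose enters the cell through SLC2A transporters and is trapped by hexokinase as glucose 6-phosphate. The sugar is phosphorylated again by phosphofructokinase, split by aldolase, oxidized by GAPDH and turned by enolase and pyruvate kinase into pyruvate. Pyruvate is either reduced to lactate, which leaves through SLC16A transporters, or enters the mitochondria, where the pyruvate dehydrogenase complex turns it into acetyl-CoA unless a PDK kinase has switched the complex off. Pluripotent stem cells are known for a high glycolytic rate, and early lineage choices are accompanied by changes in it. Messenger RNA levels do not measure the flux through the pathway.

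Of the 35 genes, 32 passed the filter on low values and 3 (SLC2A4, PFKFB1 and PDK4) did not. Between both knockout groups and WT, 6 rose (SLC2A1, SLC2A3, FBP1, ENO2, ENO3 and PDHB) and 6 fell (HK1, HK2, TPI1, PKM, SLC16A3 and PDK2), which is 37.5% of the tested genes, beside 31.3% of all genes tested. Each direction held 18.8% of the tested genes, beside 15.8% higher and 15.4% lower among all genes. These shares lie near the background, so the count itself sets the pathway little apart from other genes. FBP1 is counted here although it passed the filter only through the knockout libraries. With median-ratio scaling of the libraries, 9 rose and 5 fell, beside 29.5% of all genes tested called, 59.1% of these calls higher. With the knockout libraries taken as 1 group, 8 rose and 6 fell, beside 35.1% of all genes called, 49.1% of these calls higher. The differences were unequal in size. Of the tested genes, 4 had a log2 difference of 1 or more, all of them upwards (SLC2A1, SLC2A3, ENO2 and FBP1), and 22 differed by less than 0.3. The median difference was -0.02, beside -0.05 over all genes tested. Summed over the 35 genes, FPKM was 9755, 10032 and 10036 and then 10140, 10402 and 10716.

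**Figure D1:**
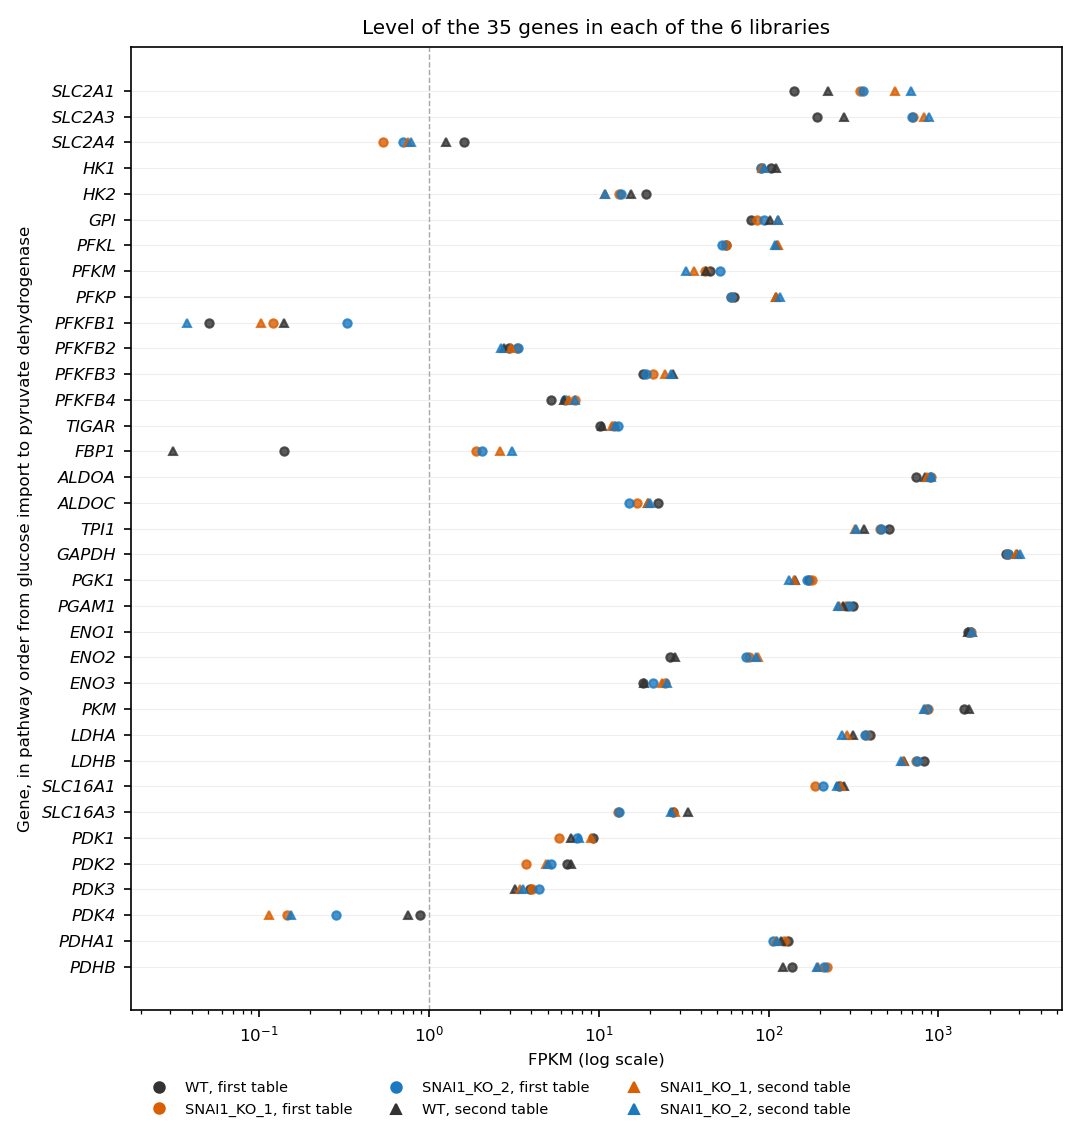
FPKM of the 35 genes in each of the 6 libraries, on a log axis, with genes in pathway order from glucose import to pyruvate dehydrogenase. Circles are libraries of the first table and triangles those of the second, and colour gives the group. GAPDH lies highest, between 2512 and 3010 FPKM, while SLC2A1, SLC2A3, FBP1 and ENO2 lie to the right of WT in the knockout libraries and PKM lies to the left.

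Against WT, 10 genes were called in SNAI1_KO_1 (5 higher and 5 lower, 31.2% of the tested genes, beside 23.9% of all genes) and 9 in SNAI1_KO_2 (5 higher and 4 lower, 28.1%, beside 25.5%). The 9 genes called in SNAI1_KO_2 were also called in SNAI1_KO_1, in the same direction, but both comparisons use the same WT libraries. Between SNAI1_KO_2 and SNAI1_KO_1, limma called 0 of the 32 genes, beside 0% of all genes. At an unadjusted p under 0.05 the count was 0 of the 32 genes and 521 of all genes, and the differences of the 32 genes ranged from -0.10 to 0.22. All 4 differences within a table lay in 1 direction for 23 of the 32 genes (71.9%), 12 upwards and 11 downwards, beside 61.3% of all genes.

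**Figure D2:**
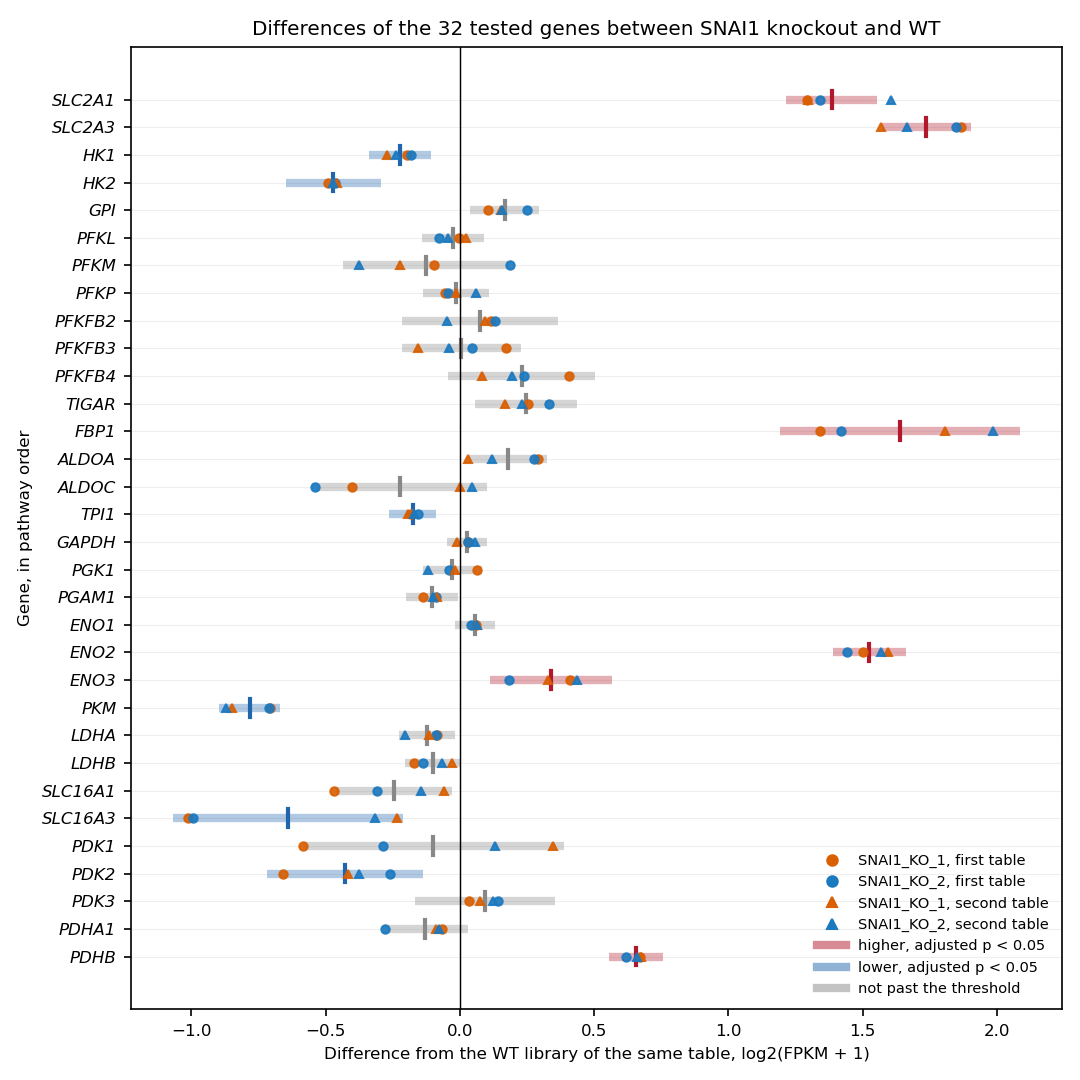
Difference on log2(FPKM + 1) of each knockout library from the WT library of its own table, for the 32 tested genes in pathway order. Vertical marks are the fitted differences of both knockout groups from WT and horizontal bars their 95% confidence intervals, coloured by the call. The intervals of SLC2A1, SLC2A3 and ENO2 lie above 1, and that of PKM lies between -0.90 and -0.67. That of FBP1 also lies above 1, but FBP1 passed the filter only through the knockout libraries, and its difference depends on the pseudocount.

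SLC2A1 and SLC2A3, the tested glucose transporters among the 35 genes, rose with SNAI1 deletion. SLC2A1 (GLUT1), the transporter of basal glucose uptake in most cells, had an FPKM of 141.1, 347.1 and 359.1 and then of 224.7, 553 and 686.7. The mean of the knockout libraries was thus 2.50 and 2.76 times WT, and no knockout library overlapped with WT, although the WT value of the second table lay 1.59 times above that of the first. The difference was 1.38 ± 0.067 (95% confidence interval 1.22 to 1.55, adjusted p = 0.000300), with 1.29 in SNAI1_KO_1 and 1.47 in SNAI1_KO_2. Without the block for the table, SLC2A1 no longer passed (adjusted p = 0.0865). SLC2A3 (GLUT3), a transporter with high affinity for glucose, had an FPKM of 193.4, 708.2 and 699.2 and then of 276.5, 821.9 and 879.5. This was 3.64 and 3.08 times WT, with a difference of 1.74 ± 0.065 (95% confidence interval 1.57 to 1.90, adjusted p = 0.000183), the highest of the 32 genes. SLC2A3 has a near-identical paralog, SLC2A14, whose FPKM was 1.57, 5.71 and 5.24 and then 3.18, 11.4 and 10.9, a difference of 1.44 ± 0.10 (adjusted p = 0.000777). How fragments shared by these genes were divided is not known, so the split between them is uncertain.

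SLC2A4 (GLUT4), the insulin-responsive transporter of muscle and fat, was close to the lower end, at 1.61, 0.535 and 0.700 FPKM and then 1.25, 0.752 and 0.780. The WT libraries were higher, but the gene fell below the filter, and it did not pass when no filter was set (-0.52, adjusted p = 0.136). Its exons overlap YBX2 on the other strand, which lay between 5.73 and 32.1 FPKM. FPKM of the transporter genes summed to 336.2, 1056 and 1059 and then to 502.5, 1376 and 1567. SLC2A1 contributed 42.0%, 32.9% and 33.9% of this sum and then 44.7%, 40.2% and 43.8%, so its share was lower in the knockout libraries of both tables.

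**Figure D3:**
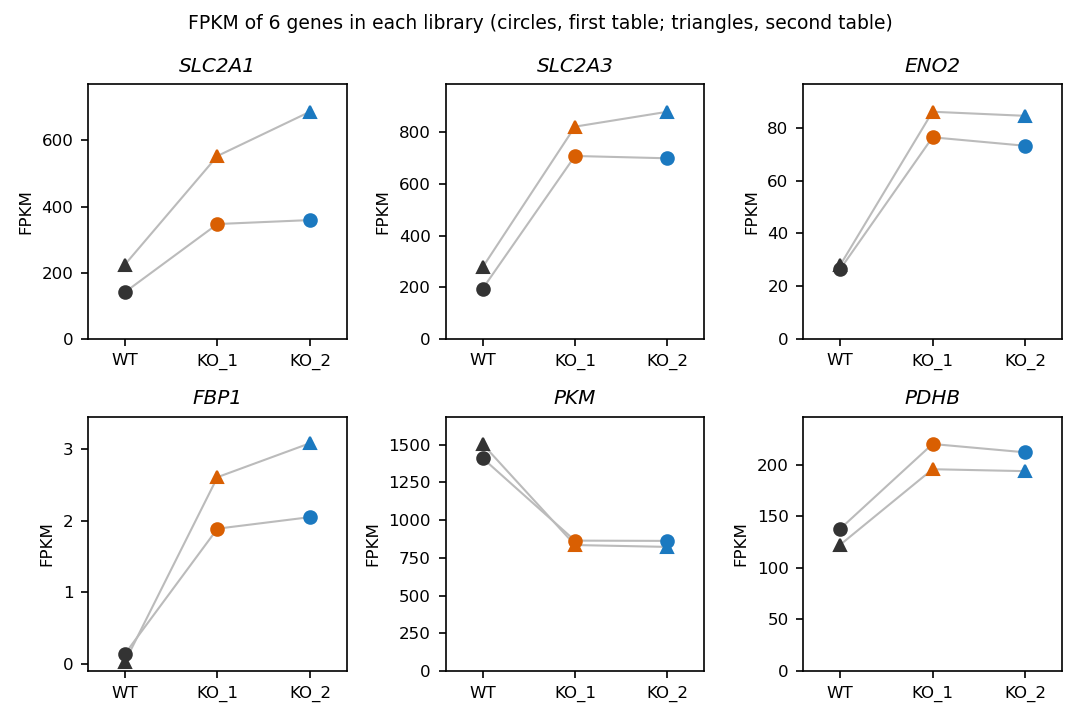
FPKM of SLC2A1, SLC2A3, ENO2, FBP1, PKM and PDHB in every library on linear axes, with circles for the first table, triangles for the second, and a line joining the libraries of 1 table. In each panel the WT libraries stand apart from all 4 knockout libraries of both tables, and the knockout groups lie near each other within a table.

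Promoter sequences are shown for SLC2A1, ENO2, PDHB and PKM, which were picked after their values were seen, among the genes that passed with a matched reference window. They are the 250 bases before the annotated start, from RefSeq on GRCh38.p14, 5′ to 3′ on the gene's own strand, and capitals mark ACGTG or GCGTG on either strand, the core of the element bound by hypoxia-inducible factors. The windows lie at chr1:42958869-42959118 (minus strand) for SLC2A1, chr12:6914330-6914579 (plus strand) for ENO2, chr3:58433833-58434082 (minus strand) for PDHB and chr15:72231191-72231440 (minus strand) for PKM.
SLC2A1: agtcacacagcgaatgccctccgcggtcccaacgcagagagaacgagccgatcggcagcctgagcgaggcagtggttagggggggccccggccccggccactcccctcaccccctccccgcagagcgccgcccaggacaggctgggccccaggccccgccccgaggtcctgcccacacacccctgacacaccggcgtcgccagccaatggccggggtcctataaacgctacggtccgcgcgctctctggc
ENO2: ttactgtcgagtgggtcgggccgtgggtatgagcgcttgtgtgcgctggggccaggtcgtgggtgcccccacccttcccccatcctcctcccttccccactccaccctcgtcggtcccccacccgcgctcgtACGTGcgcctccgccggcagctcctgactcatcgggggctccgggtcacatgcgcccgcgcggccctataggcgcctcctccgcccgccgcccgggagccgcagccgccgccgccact
PDHB: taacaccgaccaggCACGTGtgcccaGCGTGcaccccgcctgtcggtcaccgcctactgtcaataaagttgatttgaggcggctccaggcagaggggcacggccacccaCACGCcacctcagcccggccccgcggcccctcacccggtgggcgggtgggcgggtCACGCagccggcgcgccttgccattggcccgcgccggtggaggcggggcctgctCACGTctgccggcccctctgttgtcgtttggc
PKM: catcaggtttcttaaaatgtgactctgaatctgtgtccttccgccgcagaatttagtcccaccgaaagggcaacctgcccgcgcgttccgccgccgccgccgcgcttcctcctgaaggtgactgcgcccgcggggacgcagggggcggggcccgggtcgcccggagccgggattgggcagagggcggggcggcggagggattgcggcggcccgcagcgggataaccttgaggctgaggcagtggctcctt
The E-box bound by SNAI1, searched as CAGGTG on both strands, had no match in these windows. The SLC2A1 and PKM windows held no capitals, ENO2 held 1 match and PDHB held 6, where the palindrome CACGTG counts once on each strand. RefSeq windows were matched for 31 of the 35 genes, 61 windows in all, and none was matched for PFKFB2, SLC16A1, SLC2A3 and SLC2A4. CAGGTG occurred in 8 of these windows (13.1%), beside 17.5% of all 35116 windows, and the hypoxia core in 33 (54.1%), beside 43.2%. These are matches of letters and do not show binding.

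The hexokinases, which commit glucose to the cell, moved the other way from the transporters. HK1, the widely expressed form, had an FPKM of 103.2, 89.9 and 90.8 and then of 110.4, 91.2 and 93.5, with all knockout libraries below both WT libraries. The difference was small, -0.22 ± 0.046 (95% confidence interval -0.34 to -0.11, adjusted p = 0.0191), and it did not pass when any of the 6 libraries was left out (adjusted p between 0.0552 and 0.131). HK2, the inducible form, fell from 19.0 to 13.2 and 13.5 FPKM and from 15.4 to 10.9 and 10.8, a difference of -0.47 ± 0.070 (95% confidence interval -0.65 to -0.29, adjusted p = 0.00721). It did not pass with WT of the first table left out (adjusted p = 0.0651), nor with WT of the second left out (0.0581). Neither hexokinase passed without the block (0.359 for HK1 and 0.203 for HK2). AC019069.1, a long intergenic noncoding RNA whose exons overlap those of HK2 on the other strand, lay between 2.56 and 3.84 FPKM. HK1 made up 84.5%, 87.2% and 87.1% of hexokinase FPKM and then 87.8%, 89.3% and 89.6%.

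At the next steps, neither GPI nor a phosphofructokinase subunit passed the test. GPI, which turns glucose 6-phosphate into fructose 6-phosphate, was at 78.9, 84.9 and 94.1 FPKM and then at 102.5, 114.0 and 114.2, with a difference of 0.17 ± 0.051 (adjusted p = 0.0611). It passed with median-ratio scaling of the libraries (adjusted p = 0.0277). The phosphofructokinase subunits PFKL, PFKM and PFKP catalyse the step that commits sugar to glycolysis. Among them PFKL ranged from 53.0 to 56.0 FPKM in the first table and from 108.4 to 113.6 in the second. Its difference was -0.03 (95% confidence interval -0.14 to 0.089, adjusted p = 0.699). PFKP likewise differed more between tables than between groups, at 62.4, 60.1 and 60.4 FPKM and then 111.2, 110.1 and 115.9, a difference of -0.01 (95% confidence interval -0.14 to 0.11). The signs of PFKL and PFKP turned under median-ratio scaling. PFKM was at 45.2, 42.2 and 51.6 FPKM and then 42.6, 36.4 and 32.6, so that SNAI1_KO_2 was above WT in the first table and below it in the second (-0.13 ± 0.12, adjusted p = 0.470).

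The PFKFB enzymes make and break fructose 2,6-bisphosphate, the strongest activator of phosphofructokinase. PFKFB3, the form with the highest kinase activity, carried between 65.4% and 75.1% of their FPKM in each library. Its level was 18.3, 20.8 and 18.9 FPKM and then 27.5, 24.6 and 26.7, with a difference of 0.01 (95% confidence interval -0.22 to 0.23). PFKFB4 lay between 5.20 and 7.24 FPKM and above the WT library of its own table in all 4 knockout libraries, but did not pass (0.23, 95% confidence interval -0.045 to 0.50, adjusted p = 0.168). PFKFB2 lay between 2.66 and 3.35 FPKM (0.07, adjusted p = 0.663), and PFKFB1, the liver and muscle form, reached at most 0.327 FPKM and fell below the filter. TIGAR, which degrades fructose 2,6-bisphosphate, had an FPKM of 10.2, 12.3 and 13.1 and then of 10.5, 11.9 and 12.5. All knockout libraries lay above both WT libraries, with a difference of 0.25 ± 0.076 (adjusted p = 0.0611), which passed with median-ratio scaling (0.0416).

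FBP1, the bisphosphatase of gluconeogenesis that reverses the phosphofructokinase step, rose from near the bottom of the scale. Its FPKM was 0.141, 1.89 and 2.05 and then 0.0312, 2.61 and 3.08. It passed the filter only through the knockout libraries, so a difference was required for it to be tested at all. The difference was 1.64 ± 0.18 (95% confidence interval 1.19 to 2.09, adjusted p = 0.00263). Its size depends on the pseudocount, with 0.30 at a pseudocount of 10 and 3.80 at 0.1. The antisense transcript PCAT7, which overlaps exons of FBP1, lay between 0.994 and 1.55 FPKM. Even in the knockout libraries FBP1 remained far below TIGAR, at 13.3% and 13.6% of their summed FPKM, then 17.97% and 19.8%.

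From aldolase to phosphoglycerate mutase, TPI1 alone passed the test. ALDOA, which splits the 6-carbon sugar, was at 736, 900.4 and 890.2 FPKM and then at 833.7, 852.1 and 904.9, with all knockout libraries above both WT libraries. Its difference of 0.18 ± 0.058 did not pass (adjusted p = 0.0698). It passed with median-ratio scaling and with the knockout libraries taken as 1 group (lowest adjusted p = 0.0411). ALDOC, the aldolase of brain, was at 22.4, 16.7 and 15.1 FPKM and then at 19.4, 19.5 and 20.1. It was thus lower in the knockout libraries of the first table only (-0.22, adjusted p = 0.242). TPI1, which interconverts the triose phosphates, fell slightly, from 511.9 to 451.3 and 458.7 FPKM and from 366.6 to 320.6 and 325.1. The difference of -0.18 ± 0.034 (95% confidence interval -0.26 to -0.089, adjusted p = 0.0162) did not pass when any of the 6 libraries was left out (adjusted p between 0.0525 and 0.109), nor without the block (0.788).

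GAPDH, which oxidizes glyceraldehyde 3-phosphate and is a common reference gene, was the most abundant of the 35 genes. Its FPKM was 2512, 2563 and 2567 and then 2895, 2873 and 3010. Its difference was 0.03 ± 0.030 (95% confidence interval -0.050 to 0.10, adjusted p = 0.544). PGK1, the first enzyme of the pathway that makes ATP, was at 173.1, 181 and 168.3 FPKM and then at 143.6, 141.6 and 132.3, with a difference of -0.03 (adjusted p = 0.655) that turned positive under median-ratio scaling. PGAM1, the mutase that follows, was lower in all 4 knockout libraries than in the WT library of the same table, between 257 and 296 FPKM against 315.2 and 275.6 (-0.10 ± 0.038), and did not pass (adjusted p = 0.0967).

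Enolase turns 2-phosphoglycerate into phosphoenolpyruvate, and its isozymes differed from one another in response. ENO1, the ubiquitous form, was at 1494, 1555 and 1536 FPKM and then at 1501, 1568 and 1568, a difference of 0.06 ± 0.029 (95% confidence interval -0.018 to 0.13, adjusted p = 0.207). ENO2, known as neuron-specific enolase and also expressed outside the nervous system, rose from 26.4 to 76.5 and 73.3 FPKM and from 27.9 to 86.2 and 84.7. This was 2.84 and 3.06 times WT, with a difference of 1.53 ± 0.055 (95% confidence interval 1.39 to 1.66, adjusted p = 0.000182). Both WT libraries lay below all 4 knockout libraries. ENO2 was still a minor form, at 1.72%, 4.62% and 4.50% of enolase FPKM and then 1.80%, 5.14% and 5.05%. The ratio of ENO1 to ENO2 was 56.6, 20.3 and 21.0 and then 53.8, 18.2 and 18.5. This difference between isozymes is a description, since the ratio itself was not tested.

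ENO3, the muscle form, was at 18.2, 24.5 and 20.8 FPKM and then at 18.5, 23.4 and 25.4. Its difference of 0.34 ± 0.090 passed narrowly (adjusted p = 0.0408). The call was lost on leaving out any 1 library except that of SNAI1_KO_2 in the first table (adjusted p up to 0.217), and without the block (0.250). The ENO3 locus overlaps PFN1, an actin-binding protein gene on the other strand, which lay between 1184 and 1518 FPKM. Whether the counting used strand is not stated, so fragments of PFN1 and ENO3 may not have been told apart.

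**Figure D4:**
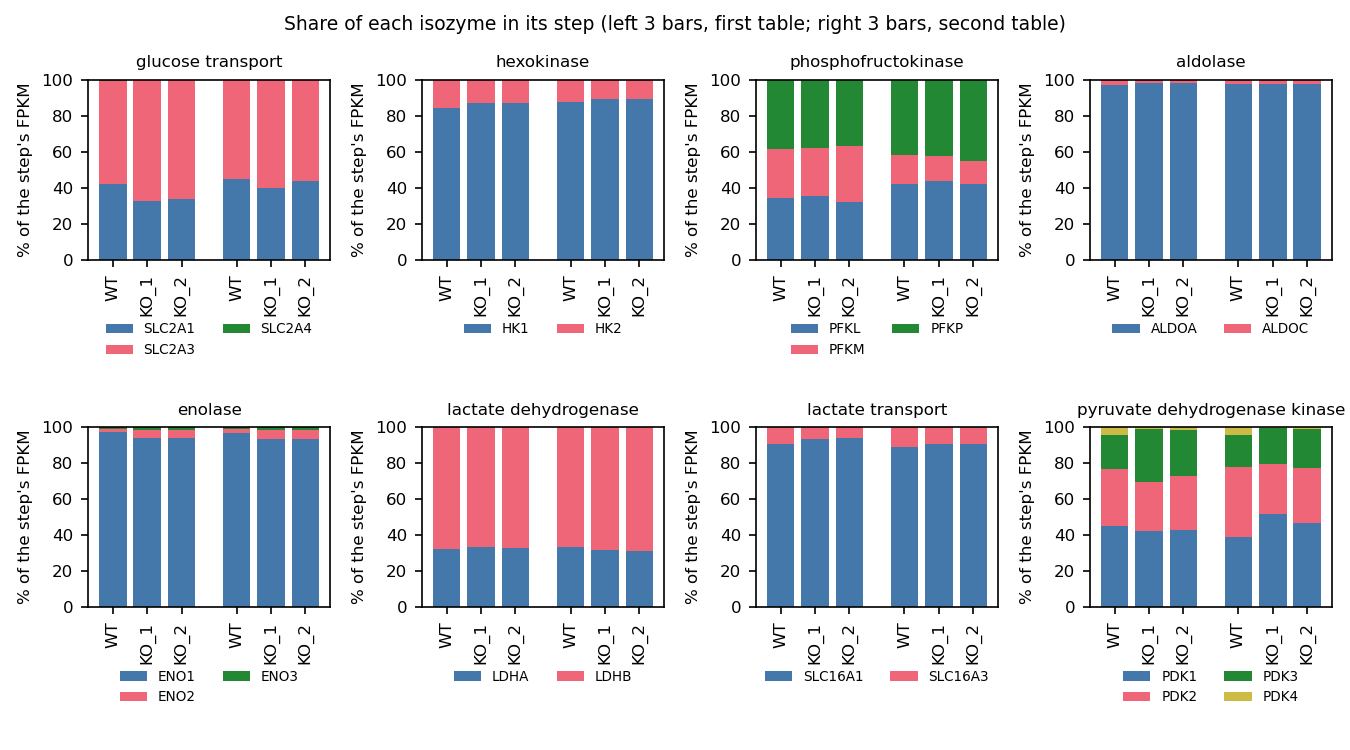
Share of each isozyme in the FPKM of its step, in percent, for 8 steps with more than 1 gene, with the left 3 bars for the first table and the right 3 for the second. ENO2 goes from 1.72% and 1.80% of enolase in WT to between 4.50% and 5.14% in the knockout libraries, while LDHA stays between 31.2% and 33.7% of lactate dehydrogenase in all libraries.

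PKM, the pyruvate kinase of most tissues, which makes pyruvate and ATP in the last step, had the largest fall. Its FPKM was 1411, 864.1 and 862.3 and then 1504, 834.9 and 822.5. All 4 knockout libraries lay below both WT libraries, at 0.612 and 0.551 times WT. The difference was -0.78 ± 0.045 (95% confidence interval -0.90 to -0.67, adjusted p = 0.000411). In WT, PKM had about as many FPKM as ENO1, with ratios of 0.945 and 1.002, and in the knockout libraries the ratio was between 0.525 and 0.561. The values are per gene, so the PKM1 and PKM2 splice forms are not told apart.

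Lactate dehydrogenase, which reduces pyruvate to lactate, did not pass for either subunit. LDHA, the subunit that favours lactate formation, was at 395.7, 372.9 and 371.5 FPKM and then at 313.8, 289.4 and 272.3. All 4 knockout libraries were below the WT library of their table, with a difference of -0.12 ± 0.041 (95% confidence interval -0.23 to -0.019, adjusted p = 0.0754). LDHB was the more abundant subunit in every library, at 826.1, 733.6 and 750.1 FPKM and then at 628.3, 615.4 and 599.6 (-0.10, 95% confidence interval -0.21 to 0.0028, adjusted p = 0.122). The share of LDHA in their sum hardly moved, at 32.4%, 33.7% and 33.1% and then 33.3%, 31.99% and 31.2%.

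The lactate transporters were lower in the knockout libraries, by amounts that differed between tables. SLC16A3 (MCT4), which exports lactate from glycolytic cells, was at 27.2, 13.0 and 13.1 FPKM and then at 33.4, 28.2 and 26.6. This was 0.480 and 0.821 times WT, with a fitted difference of -0.64 ± 0.17 (95% confidence interval -1.07 to -0.21, adjusted p = 0.0408). SLC16A3 did not pass without the block (adjusted p = 0.464), nor with no filter (0.180). Its value was -0.28 (adjusted p = 0.135) with WT of the first table left out and -1.003 (0.0115) with WT of the second left out, and leaving out any 1 knockout library also ended the call (adjusted p between 0.0518 and 0.123). The exons of SLC16A3 overlap CSNK1D on the other strand, which lay between 61.1 and 91.7 FPKM. SLC16A1 (MCT1), which carries lactate in either direction, was at 260.8, 188 and 210.4 FPKM and then at 277.7, 266.6 and 251.2. It did not pass (-0.25 ± 0.086, adjusted p = 0.0853). Leaving out 1 library moved its value from -0.10 (without WT of the first table) to -0.39 (without WT of the second), and it passed without SNAI1_KO_1 of the second table (-0.33, adjusted p = 0.0294).

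At the entry of pyruvate to the mitochondria, a single subunit of pyruvate dehydrogenase rose. PDHB, the beta subunit of its first enzyme, had an FPKM of 137.7, 219.9 and 211.9 and then of 122.2, 195.5 and 193.6. The knockout libraries were 1.57 and 1.59 times WT, nearly the same factor in both tables, and the difference was 0.66 ± 0.040 (95% confidence interval 0.55 to 0.76, adjusted p = 0.000508). PDHA1, the alpha subunit that pairs with it, was at 129.9, 123.8 and 106.7 FPKM and then at 117.7, 110.7 and 111.5 (-0.13, 95% confidence interval -0.29 to 0.029, adjusted p = 0.177). The ratio of PDHB to PDHA1 was 1.06 and 1.04 in WT and lay between 1.74 and 1.99 in the knockout libraries, a description that was not tested.

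The PDK kinases, which inactivate the complex, were all below 10 FPKM. PDK1 went in opposite directions in the tables, at 9.26, 5.84 and 7.41 FPKM and then at 6.87, 8.997 and 7.61 (-0.10, 95% confidence interval -0.59 to 0.39). PDK2 was at 6.49, 3.74 and 5.25 FPKM and then at 6.84, 4.88 and 5.04, with all knockout libraries below both WT libraries and a difference of -0.43 ± 0.12 (adjusted p = 0.0422). That call was lost on leaving out any 1 of the 6 libraries and with median-ratio scaling. It was also lost without the block (adjusted p = 0.199) and with no filter (0.13). SAMD14, whose exons overlap those of PDK2 on the other strand, lay between 1.09 and 1.92 FPKM. PDK3 did not pass (0.09, adjusted p = 0.531), between 3.19 and 4.42 FPKM. PDK4, the kinase induced by fasting and fatty acids, was at 0.884, 0.145 and 0.284 FPKM and then at 0.749, 0.114 and 0.153. All its knockout libraries were below both WT libraries, but the gene was under the filter. With no filter its difference was -0.63 ± 0.058 (adjusted p = 0.0303).

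Of the 12 genes that passed, SLC2A3, ENO2, PKM and PDHB did so under all 15 alternative settings, and SLC2A1 under all but the fit with no block. FBP1 is left aside here, because only its knockout values brought it into the test. The other 6 each lost the call under some of them. Leaving out any 1 library lowered the number of these genes called, and it also lowered the number called among all genes tested. Symbols that join the name of one of the genes to P and a number, as pseudogenes are named, were found for 12 of the genes (84 symbols), and their FPKM reached at most 2.27% of that of a tested gene (TPI1).

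Related genes of sugar metabolism were taken from lists and counted in the same fit, in which 15.8% of all genes tested rose and 15.4% fell. Of 9 tested among 15 other transport genes, 3 rose and 0 fell, namely SLC2A14, SLC2A11 (0.68, adjusted p = 0.0109), and EMB (0.47, adjusted p = 0.00852), which escorts lactate transporters to the membrane. Of 9 tested among 23 other enzymes of glycolysis and gluconeogenesis, 3 rose and 0 fell, and 3 of the list were at 0 in all libraries. Those that rose were PCK2, the mitochondrial PEP carboxykinase (0.85, adjusted p = 0.00189), PGM1 (0.44, adjusted p = 0.0320) and PGM2 (0.29, adjusted p = 0.0488), the phosphoglucomutases. Against WT, PGM1 passed in neither knockout group alone (adjusted p = 0.0510 in SNAI1_KO_1 and 0.0613 in SNAI1_KO_2). PGM2 passed in SNAI1_KO_2 (0.0213) but not in SNAI1_KO_1 (0.447). Of 11 tested genes of pyruvate entry, ME1 (0.99, adjusted p = 0.00373) and ME2 (0.74, adjusted p = 0.00482), malic enzymes that make pyruvate from malate, rose and 0 fell. In the pentose phosphate pathway 1 of 7 rose, TALDO1 (0.37, adjusted p = 0.00392). In the tricarboxylic acid cycle 2 of 17 rose and 4 fell, with SUCLA2 the largest rise (0.56, adjusted p = 0.00933) and IDH3G (-0.40, adjusted p = 0.00781) and IDH2 (-0.35, adjusted p = 0.0286) the largest falls. The medians of these lists were 0.22, 0.10, 0.04, 0.05 and -0.04 in that order, beside -0.05 over all genes.

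Genes that respond to low oxygen, leaving out the glycolytic ones, moved both ways. Of 17 tested, 3 rose and 7 fell, beside 15.8% and 15.4% of all genes, with a median of -0.18. Among the falls, LOX passed the filter only through WT. DDIT4, an inhibitor of mTORC1, rose from 6.23 to 22.8 and 21.2 FPKM and from 6.98 to 33.8 and 49.7 (2.03, adjusted p = 0.00224). ADM, which encodes a vasoactive peptide, rose by 1.35 (adjusted p = 0.000865), and MXI1, a MYC antagonist, fell by 1.09 (adjusted p = 0.00963). Of 10 tested regulators of glucose sensing and glycolysis, 2 rose and 4 fell, beside the same background, with a median of -0.19. MLXIPL, the carbohydrate response element binding protein, rose from 0.626 to 3.29 and 4.15 FPKM and from 1.72 to 13.3 and 15.3 (2.01, adjusted p = 0.00311). PRKAA2, a catalytic subunit of AMPK, was between 1.44 and 1.61 FPKM in the knockout libraries and at 0.381 and 0.269 in WT (0.93), and it passed the filter only through the knockout libraries, so its call is no support for a rise. MYCN fell by 0.92 (adjusted p = 0.00250).

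**Figure D5:**
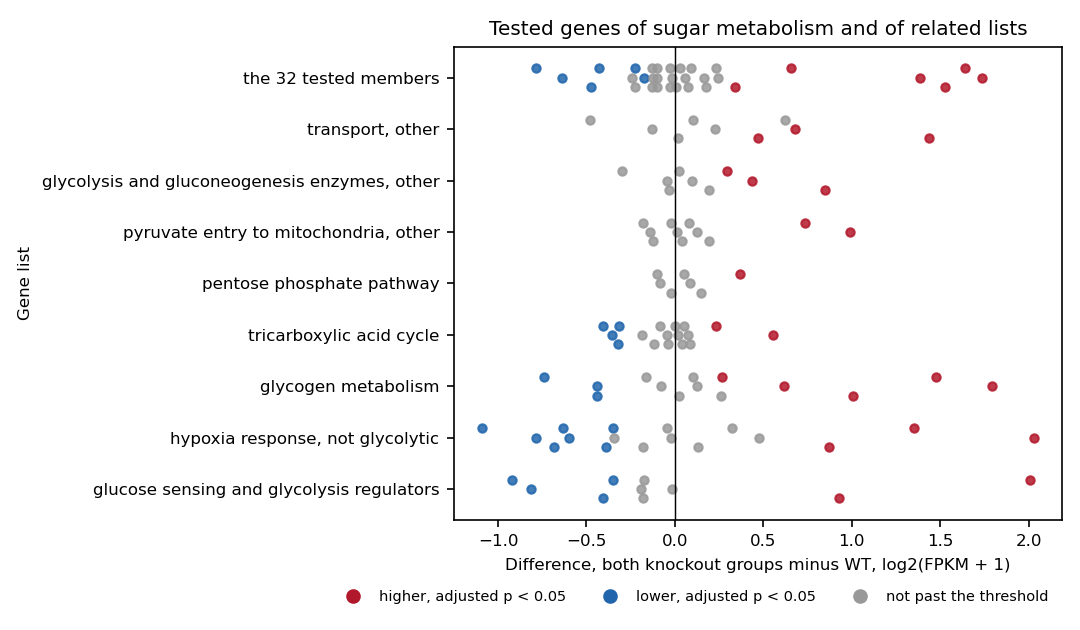
Difference of both knockout groups from WT on log2(FPKM + 1), 1 point per tested gene, for the 32 tested genes of glycolysis and transport and for 8 related lists, coloured by the call. The transport, gluconeogenesis, pyruvate entry and pentose phosphate lists hold 3, 3, 2 and 1 calls upwards and 0 downwards, and the hypoxia list holds 3 upwards and 7 downwards. Among all genes tested, 15.8% were higher and 15.4% lower.

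Cell type markers moved with the groups as well, and these are bulk libraries, in which fewer cells of a type and less RNA per cell cannot be told apart. The counts of markers called stand beside 15.8% higher and 15.4% lower among all genes tested. Mesoderm markers summed to 1820 and 1774 FPKM in WT and to between 1164 and 1254 in the knockout libraries, with 2 of 13 tested higher and 9 lower, HAND1 (-1.96) and TBX20 (-1.70) among the falls and T (2.72) among the rises. Pluripotent cell markers summed to 1474 and 1455 FPKM in WT and to between 1672 and 1811 in the knockout libraries, with 3 of 12 tested higher (NANOG by 1.14, POU5F1 by 0.57 and DPPA4 by 0.41) and 1 lower. This sum rose by about as much as POU5F1 alone, which was at 484.8, 676.6 and 704.8 FPKM and then at 629.9, 933.4 and 1014. Endoderm markers summed to 3512 and 3135 FPKM in WT and to between 1433 and 2047, with 2 of 8 tested higher and 3 lower, CER1 by -1.0025 and GATA6 by -0.71, while SOX17 rose by 0.63 and TTR was at 0 in all libraries. The endoderm sum mostly followed CER1, which was at 3262, 1778 and 1797 FPKM and then at 2550, 1374 and 976.9. Neural ectoderm markers summed to 186.5, 326.3 and 317.5 FPKM and then to 450, 727.9 and 677.4, with TUBB3 higher by 1.05 of 2 tested. The neural sum rose by less than TUBB3 alone, which was at 105.2, 252 and 245.5 FPKM and then at 354.1, 658.7 and 627. Amnion and trophoblast markers summed to 44.6, 71.0 and 70.2 FPKM and then to 69.0, 74.0 and 96.7. IGFBP3 alone held 0.813, 24.2 and 25.0 FPKM of this sum and then 0.495, 20.7 and 21.0. Of 7 tested, 4 were higher, IGFBP3 (3.84) and CDX2 (1.97) among them, and 2 lower, HAND2 (-2.61) among them. Of the markers called, MSGN1 (mesoderm), FOXA1 (endoderm), IGFBP3 and GABRP (amnion and trophoblast) passed the filter only through the knockout libraries, and TBX20 and HAND2 only through WT, so the counts that include them overstate what was tested. The part of these shifts in the differences of the glycolytic genes was not tested. Mitochondrial transcripts took 8.77% to 9.46% of FPKM in libraries of the first table, against 5.20% to 5.52% in those of the second, a gap between tables and not between groups.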

How the data were processed

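RNA-seq libraries of H1 cells, 2 per group, were built from 2 ug of total RNA. The authors deposited FPKM per gene symbol in 2 tables of 38100 and 58324 gene rows, each with 1 library of every group, and a heading row of the second table names the unit. The submitters' processing notes name BWA, Bowtie, RSEM and hg19 without role or version. Symbols repeated within a table (94 and 340) were left out, and 0 per-sample columns were unused. Genes whose FPKM averaged 1 or more were tested on log2(FPKM + 1), a scale that understates changes of low genes. The model (limma 3.58.1, R 4.3.3, lmFit and eBayes with a trend, 2 residual and 3.34 prior degrees of freedom) had 3 group means and a block for the table. The pairing comes from the shared tables, whose between-table differences correlated across genes with r = 0.616, 0.666 and 0.676. Tests were two-sided, and the model was tested on simulated data, with gene variances as estimated per gene, as drawn from the fitted prior, or as moderated by limma. False calls exceeded the nominal share with the moderated variances, so adjusted p-values may be too small where the spread is of that kind.

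Named genes are SNAI1, the 35 genes, and up to 3 called genes with the largest difference from each other list. MSGN1, FOXA1, GABRP and LOX were added after their values were seen, for passing the filter through 1 side only. Genes overlapping them were taken by symbol from GENCODE 29, a check added after the values were seen. The members and lists were chosen with earlier results of these data known. Alternatives covered the block, pseudocounts, filters, scaling, the trend, grouping and each library left out. Absolute depth is unknown, so no counting interval is given.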

Additional observations from a re-analysis of the deposited data

How the results depend on the processing

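Of 492 recomputed differences of 33 genes under 15 settings, 424 kept their direction and their side of the threshold, 48 no longer passed, 6 came to pass and 14 changed sign. With no replicate block, 576 genes were called in SNAI1_KO_1, 698 in SNAI1_KO_2 and 1065 in both groups against WT (3327, 3549 and 4348 with the block), and 4, 4 and 5 of the glycolytic and transport genes. With no filter the gene counts were 1008, 1216 and 2139. Leaving out 1 library gave between 1034 and 2479 genes in SNAI1_KO_1, between 1240 and 2781 in SNAI1_KO_2 and between 1825 and 2919 in both, and between 5 and 7, 6 and 7, and 6 and 8 of the glycolytic and transport genes. A group left with 1 library was assumed to vary like the others, and these fits have fewer samples. Beyond that, the cause was not tested. Under median-ratio scaling the differences of PFKL, PFKP and PGK1 turned to 0.021, 0.033 and 0.019, and under quantile normalization that of PFKP turned to 0.012. Without 1 library the ranges that cross 0 were -0.30 to 0.044 for PFKM, -0.050 to 0.023 for PFKP, -0.098 to 0.11 for PFKFB3, -0.47 to 0.023 for ALDOC, -0.069 to 0.012 for PGK1 and -0.44 to 0.24 for PDK1. None of the 12 called genes changed sign under these settings. Absolute depth is unknown, and 2 libraries per group limit what could be detected.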

Other observations

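Glycogen metabolism, which branches from glucose 6-phosphate, held genes with differences as large as those of the glucose transporters. Of 14 genes tested, 5 rose and 3 fell, beside 15.8% and 15.4% of all genes tested, with a median difference of 0.12. UGP2, which makes the UDP-glucose that glycogen is built from, rose from 66.8 to 210.8 and 224.1 FPKM in the first table and from 48.3 to 173.3 and 194.1 in the second, a difference of 1.80 ± 0.064 (adjusted p = 0.000182 by limma). PYGL, the liver form of glycogen phosphorylase, which breaks glycogen down, rose from 6.56 to 17.8 and 19.5 FPKM and from 4.86 to 16.6 and 16.3 (1.48, adjusted p = 0.000473). GYG2, a glycogenin that primes new glycogen, rose from 12.8 to 25.4 and 27.6 FPKM and from 17.3 to 34.6 and 37.8 (1.01, adjusted p = 0.000464). In each of these genes, all 4 knockout libraries lay above both WT libraries.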
